A study of Gallus gallus with 2 samples.

Results

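Heat shock proteins and their co-chaperones were examined in the wings of 1 chick embryo. Members were the genes whose symbol carries a name of the HSP, DNAJ, CCT, BAG, AHSA, CDC37 or FKBP families, or is STIP1 or ST13, with a mean of at least 1 TPM over both wings. The basement membrane proteoglycan HSPG2, whose symbol begins with the same letters, was left out. This gave 86 members among the 24356 rows of the table, all of which were among the 13946 genes compared. TPM is a measure of transcript abundance per unit of length, so that levels of different genes can be set against each other, and both libraries sum to one and the same total.

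The first library came from the right wing, injected with RCAS-GFP-SOCS2, and the other from the uninjected left wing of the same embryo, both labelled forelimb bud and taken 5 days after infection at stage HH 34. RCAS is an avian retrovirus that replicates in chicken cells, here carrying GFP and SOCS2, a suppressor of cytokine signalling. The labels describe no wing injected with a vector lacking SOCS2, so SOCS2, GFP, virus, injection and body side cannot be told apart. Each wing gave 1 library from 1 embryo, so differences could not be checked against replicates and carry no p-value, and the depth behind the TPM values was unknown.

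SOCS2 itself was at 254 TPM in the injected wing, against 54.2 TPM in the uninjected wing, a log2 ratio of 2.23. The forelimb factor TBX5 was at 137 TPM in the injected wing and 113 TPM in the uninjected wing, and the limb mesenchyme factor PRRX1 at 204 TPM injected and 239 TPM uninjected, so the tissue label was matched by its markers. Because the wings were sequenced whole, fewer cells of a type and less RNA per cell cannot be told apart.

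Chaperones help proteins to fold and keep damaged ones from clumping. HSP70 binds short hydrophobic stretches of unfolded chains in a cycle driven by ATP, J-domain proteins deliver the chains and speed the cycle, and exchange factors release them. HSP90 completes the folding of kinases and steroid receptors handed on by HSP70, the CCT ring encloses actin and tubulin, and separate sets work in the endoplasmic reticulum and in mitochondria. Heat and other stress raise part of this machinery through the heat shock factors, while growing embryonic tissue makes much of it at all times.

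The chaperone transcripts stood at nearly the same level in both wings. Of the 86 members, 0 were higher and 3 were lower in the injected wing once a limit of 1.5-fold was applied, a limit of size that tests nothing with 1 library a wing. Over all genes compared, 7.02% passed 1.5-fold, 2.23% higher and 4.79% lower, beside 3.49% of the members. At the median the members were more abundant than all genes, and shares by level are given below. The 3 lower members were FKBP6, HSPB11 and FKBP11, and none of them is a main chaperone of the cytosol. The median log2 ratio of injected over uninjected was −0.01 over the members, with quartiles of −0.09 and 0.07, and −0.04 over all genes compared, with quartiles of −0.18 and 0.08. A log2 ratio within 0.1 of 0 was found for 50 members, or 58.1%, and for 38.7% of all genes.

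Low genes varied more than abundant ones in this table, and the members were abundant. The median member stood at 62.9 TPM, against 24.8 TPM for all genes. From 100 TPM upwards, the median size of the log2 ratio, regardless of sign, was 0.07 for 32 members and 0.10 for all 1817 genes. Between 20 and 100 TPM it was 0.08 for 39 members and 0.11 for all 6064 genes. Between 5 and 20 TPM the values were 0.15 for 11 members and 0.17 for all 3634 genes, and from 1 to 5 TPM they were 0.30 for 4 members and 0.31 for all 2431. The members thus varied a little less than genes of like level in each of these ranges, a description of 2 libraries with no test. The genes compared include rows with no symbol, whereas every member has one.

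The calls followed abundance as well. From 100 TPM upwards 0 of 32 members passed 1.5-fold, where 1.87% of all genes did. In each of the other ranges 1 member passed. Between 20 and 100 TPM this was 1 of 39, beside 2.04% of all genes. It was 1 of 11 between 5 and 20 TPM, beside 7.04%, and 1 of 4 from 1 to 5 TPM, beside 23.2%. The calls among members were thus near the share of all genes of like level.

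**Figure D1:**
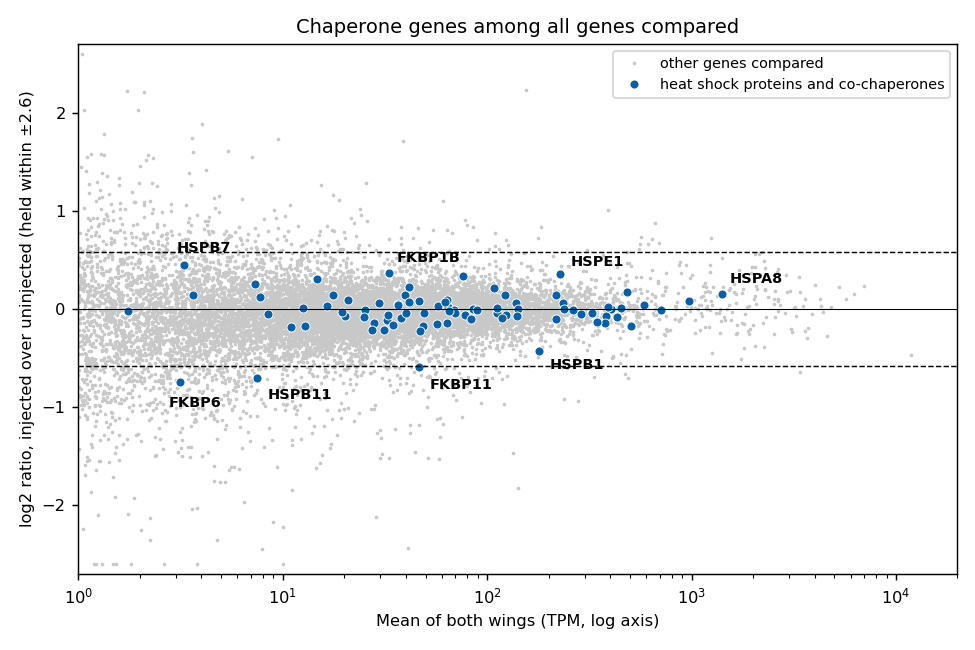
Log2 ratio of injected over uninjected wing (vertical axis) against the mean TPM of both wings (horizontal log axis) for the 86 members (blue) and all other genes compared (grey); dashed lines mark 1.5-fold, and grey points beyond 2.6 either way are drawn at that limit. The blue points lie in a narrow band around 0, with FKBP6, HSPB11 and FKBP11 below the lower line.

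The summed level of the members was 13154 TPM in the injected wing and 13059 TPM in the uninjected wing, or 1.32% of all transcripts injected and 1.31% uninjected. HSPA8, the constitutive HSP70 of the cytosol, led in both wings, and its rank among all rows was 90 in the injected and 97 in the uninjected wing. Without HSPA8 the members summed to 11661.3 TPM injected and 11719.5 TPM uninjected, a difference of the opposite sign. The 5 highest members held 32.7% of the summed level of members in the injected wing, against 31.5% in the uninjected wing. HSPA8, HSP90AA1, HSP90B1 and HSP90AB1 were the first 4 in each, and the fifth was FKBP9 in the injected wing and HSPA5 in the uninjected wing. At least 300 TPM was reached by 15 members in each wing.

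**Figure D2:**
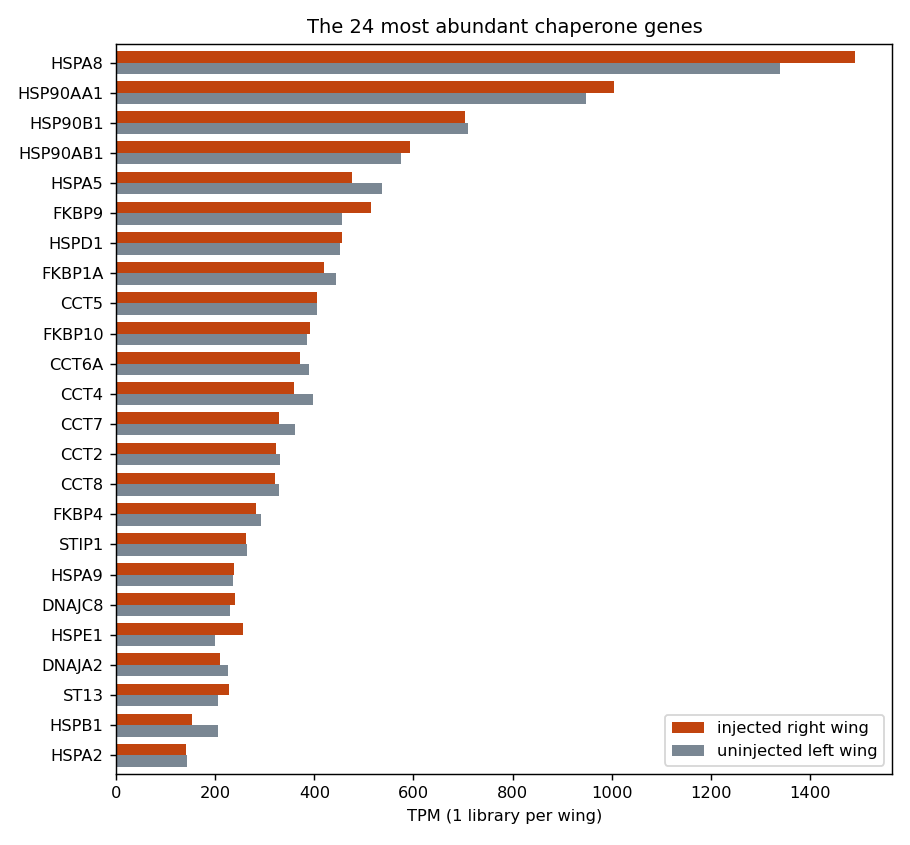
TPM of the 24 most abundant members (horizontal axis from 0) in the injected right wing (red) and the uninjected left wing (grey), 1 library each and so with no error bars. HSPA8 stands at 1492 TPM injected and 1339 TPM uninjected, and bars of the same gene are close in length throughout, with the widest relative gap at HSPB1.

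In the HSP90 system, 0 of 9 members passed 1.5-fold and the median log2 ratio was −0.01. HSP90AA1, the stress-inducible HSP90 of the cytosol, was at 1005 TPM in the injected wing and 948 TPM in the uninjected wing. HSP90AB1, the constitutive form, was at 592 TPM injected and 576 TPM uninjected. Their log2 ratios were 0.08 and 0.04, and the level of HSP90AA1 was 1.70 times that of HSP90AB1 in the injected wing and 1.65 times in the uninjected one.

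The partners of HSP90 kept the same order of levels in both wings. FKBP4, a prolyl isomerase of steroid receptor complexes, was at 282 TPM in the injected wing and 292 TPM in the uninjected wing. STIP1, the adaptor that hands clients from HSP70 to HSP90, was at 263 TPM injected and 264 TPM uninjected. AHSA1, which stimulates the ATPase of HSP90, was at 136 TPM injected and 143 TPM uninjected.

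CDC37, the adaptor for kinase clients, had the highest ratio of the group, with 128 TPM in the injected wing and 115 TPM in the uninjected wing (log2 ratio 0.15). Its relative CDC37L1 had the lowest, at 25.3 TPM injected and 29.3 TPM uninjected (−0.21). FKBP51, the listed name of FKBP5, a target gene of the glucocorticoid receptor in mammals, was at 26.5 TPM injected and 29.4 TPM uninjected (−0.15). AHSA2P, which RefSeq lists as AHSA2, was at 42.3 TPM injected and 40.2 TPM uninjected.

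The HSP70 and HSP110 genes of the cytosol had a median log2 ratio of −0.00, with 0 of 7 past 1.5-fold. HSPA8 was at 1492 TPM in the injected wing and 1339 TPM in the uninjected wing, a log2 ratio of 0.16 that was the highest of the group. HSPA2 was at 141 TPM injected and 142 TPM uninjected, HSPA4 at 121 TPM injected and 126 TPM uninjected, and HSPA4L at 109.7 TPM injected and 113 TPM uninjected. HSPA4, HSPA4L and HSPH1 belong to the HSP110 branch, which acts as an exchange factor for HSP70, and HSPH1 was at 37.5 TPM injected and 36.0 TPM uninjected.

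The level of HSPA8 was 10.6 times that of HSPA2 in the injected wing and 9.45 times in the uninjected one. HSPA14, a ribosome-bound relative in mammals, was at 41.4 TPM injected and 37.5 TPM uninjected, and the distant relative HSPA12A was at 25.1 TPM injected and 25.3 TPM uninjected. The HSP70 genes, and likewise the HSP90 genes, are close in sequence, and the sources used here do not say how reads shared between them were assigned, so their separate levels are uncertain. The sum of the group was 1969 TPM in the injected wing and 1819 TPM in the uninjected wing. How far shared reads affect this sum is not known either.

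Exchange factors and other partners of HSP70 had the narrowest interquartile range of log2 ratios among the role groups, 0.06. From lowest to highest ratio, CCT (0.14) and the cytosolic HSP70 and HSP110 group (0.21) were narrower than this group (0.23). Of the 6 exchange factors and partners 0 passed 1.5-fold, and their ratios ran from −0.09 to 0.14 around a median of 0.03. ST13, the HSP70-interacting protein Hip that slows the release of ADP, was at 227 TPM in the injected wing and 206 TPM in the uninjected wing and had the highest ratio. BAG3, which with HSPB8 routes damaged proteins to autophagy, was at 68.4 TPM injected and 68.8 TPM uninjected.

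The other BAG genes also lay close together. BAG2, an inhibitor of the ubiquitin ligase CHIP, was at 58.2 TPM in the injected wing and 57.0 TPM in the uninjected wing. BAG4 was at 42.8 TPM injected and 40.9 TPM uninjected, BAG1 at 36.7 TPM injected and 39.0 TPM uninjected, and BAG5 at 16.7 TPM injected and 16.4 TPM uninjected. BAG1 had the lowest ratio of the group, −0.09.

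J-domain proteins of the cytosol and nucleus made up the largest group. Of 20 members, 0 passed 1.5-fold, 10 had ratios above 0 and 10 below, and the median was 0.00. DNAJC8, a protein associated with splicing, was at 239 TPM in the injected wing and 229 TPM in the uninjected wing, and DNAJA2, a general partner of HSP70, was at 210.1 TPM injected and 226 TPM uninjected. DNAJB1, the stress-inducible partner of HSP70, was at 115 TPM injected and 122 TPM uninjected (log2 ratio −0.09), and DNAJA1 was at 112 TPM injected and 111 TPM uninjected (0.01).

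The extremes of the group were modest. DNAJC24, an enzyme cofactor in making diphthamide on elongation factor 2, had the highest ratio, 0.30, with 16.2 TPM in the injected wing and 13.1 TPM in the uninjected wing. DNAJB4 followed at 0.23, with 44.7 TPM injected and 38.1 TPM uninjected, and the ribosome-associated DNAJC2 at 0.21, with 116 TPM injected and 100.005 TPM uninjected. DNAJC12, a partner of the aromatic amino acid hydroxylases, had the lowest ratio, −0.21, with 29.1 TPM injected and 33.7 TPM uninjected.

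The remaining J-domain genes of this group had log2 ratios between −0.16 for DNAJC13, an endosomal protein, and 0.13 for DNAJC6, the auxilin that uncoats clathrin vesicles. DNAJC6 was at 8.05 TPM in the injected wing and 7.37 TPM in the uninjected wing. DNAJB6, which suppresses protein aggregates, was at 80.4 TPM injected and 86.6 TPM uninjected, and DNAJC9, a histone chaperone, at 88.9 TPM injected and 89.2 TPM uninjected. DNAJB13, a protein of the cilium axoneme and the lowest member of all, was at 1.74 TPM injected and 1.77 TPM uninjected.

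The CCT chaperonin, the ring that folds actin and tubulin, had 6 subunit genes among the members, and 0 passed 1.5-fold. They were near one another in level, from 319.9 TPM for CCT8 to 404 TPM for CCT5 in the injected wing and from 328 to 405 TPM for the same genes in the uninjected wing. The highest subunit was 1.26 times the lowest in the injected wing and 1.23 times in the uninjected one, the narrowest range of levels of any group here.

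All 6 CCT ratios lay below 0, from −0.15 for CCT4 to −0.00 for CCT5, with a median of −0.05. Over all genes compared, 8324 of 13946 lay below 0 and the median was −0.04. Among all 1817 genes from 100 TPM upwards, the range that holds these subunits, the median was 0.00. CCT4 was at 359.8 TPM in the injected wing and 398 TPM in the uninjected wing, CCT7 at 329 TPM injected and 361 TPM uninjected, CCT6A at 371 TPM injected and 389 TPM uninjected, and CCT2 at 323 TPM injected and 329 TPM uninjected. TCP1, the alpha subunit whose name falls outside the rule, was at 450.3 TPM injected and 484 TPM uninjected (−0.10). The shared sign depended on scaling. With the injected library rescaled by the median of ratios or a trimmed mean, 3 of the 6 were above 0. With the upper quartile 2 of 6 were. Once the trend over abundance was removed, all 6 stayed below 0, with a median of −0.06. CCT3 was not analysed here.

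Among the chaperones of mitochondria, 0 of 9 passed 1.5-fold and the median was 0.01. HSPD1, the chaperonin HSP60, was at 456 TPM in the injected wing and 452 TPM in the uninjected wing. HSPE1, its lid HSP10, was at 255 TPM injected and 199 TPM uninjected, a log2 ratio of 0.36 that was the highest of the group. HSPD1 and HSPE1 are neighbouring genes, and the level of HSPD1 was 1.79 times that of HSPE1 in the injected wing and 2.27 times in the uninjected one.

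HSPA9, the mitochondrial HSP70 or mortalin, was at 237 TPM in the injected wing and 236 TPM in the uninjected wing. Its J-domain partner DNAJA3 was at 39.6 TPM injected and 40.8 TPM uninjected. DNAJC19, a regulator of the import motor, was at 37.0 TPM injected and 36.0 TPM uninjected, and DNAJC15, its relative, at 18.6 TPM injected and 16.8 TPM uninjected. DNAJC30 had a ratio of 0.26 at a low level of 7.94 TPM injected and 6.62 TPM uninjected, while DNAJC28 was at 8.35 TPM injected and 8.64 TPM uninjected (−0.05). DNAJC11, a protein of the cristae, was at 48.1 TPM injected and 49.6 TPM uninjected.

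In the endoplasmic reticulum, where secreted and membrane proteins fold, 1 of 15 members was lower and 0 were higher by 1.5-fold, with a median log2 ratio of −0.06. HSP90B1, the HSP90 of this compartment known as GRP94, was at 704 TPM in the injected wing and 710.2 TPM in the uninjected wing. HSPA5, the HSP70 known as BiP and a classic target of the unfolded protein response, was at 475 TPM injected and 537 TPM uninjected (−0.18). The level of HSPA5 was 0.675 times that of HSP90B1 in the injected wing and 0.756 times in the uninjected one.

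The lower member was FKBP11 (ENSGALG00000035060), a membrane-anchored prolyl isomerase of secretory cells, at 36.8 TPM in the injected wing and 55.6 TPM in the uninjected wing. Its log2 ratio of −0.59 stood just past the limit of 0.58. The call was lost under each of 3 other scalings, with ratios between −0.56 and −0.55, with a pseudocount of 1 TPM and once the trend over abundance was removed.

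The other prolyl isomerases of the compartment lay within 1.5-fold. FKBP9 had the highest ratio of the group, 0.17, with 514 TPM in the injected wing and 456 TPM in the uninjected wing. FKBP10, which with the collagen chaperone SERPINH1 acts on procollagen, was at 392 TPM injected and 385 TPM uninjected, and FKBP14 was at 64.7 TPM injected and 63.8 TPM uninjected. The J-domain partners of BiP were level too, with DNAJC3 at 85.3 TPM injected and 85.1 TPM uninjected, DNAJC10 at 76.5 TPM injected and 79.6 TPM uninjected, and DNAJB9, a target of the unfolded protein response, at 19.7 TPM injected and 20.7 TPM uninjected. The other 6 members of the compartment, HSPA13, DNAJB12, DNAJB14, DNAJC1, DNAJC16 and DNAJC18, had log2 ratios between −0.19 and 0.09.

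FKBP prolyl isomerases outside the endoplasmic reticulum numbered 6, of which 1 was lower and 0 were higher, with a median of −0.07. FKBP1A, the target of rapamycin and FK506, was at 419 TPM in the injected wing and 443 TPM in the uninjected wing. Its close relative FKBP1B, which binds calcium release channels in heart and muscle, was at 37.3 TPM injected and 28.9 TPM uninjected and had a log2 ratio of 0.37. The level of FKBP1A was 11.2 times that of FKBP1B in the injected wing and 15.3 times in the uninjected one.

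FKBP6 (ENSGALG00000029211), an HSP90 partner of germ cells in mice, was the lower member, at 2.32 TPM in the injected wing and 3.95 TPM in the uninjected wing (log2 ratio −0.74). This was the lowest ratio of all 86 members, in the range of 1 to 5 TPM where 23.2% of all genes passed 1.5-fold. With a pseudocount of 1 TPM the ratio was −0.58 and the call was lost. FKBP3, a nuclear prolyl isomerase, was at 141 TPM injected and 135 TPM uninjected, and FKBP8, an anchor for BCL2 on mitochondria, at 60.6 TPM injected and 67.1 TPM uninjected. FKBP15 was at 32.0 TPM injected and 33.3 TPM uninjected.

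The small heat shock proteins are ATP-independent holders of unfolding proteins that are abundant in muscle. They had the widest interquartile range of log2 ratios of the chaperone groups, although 0 of 6 passed 1.5-fold. This range was 0.47, against 0.16 over all members and 0.27 over all genes compared, with no matching for level. HSPB3 and HSPB7 had means of 3.64 and 3.30 TPM, in the range of 1 to 5 TPM where 23.2% of all genes passed 1.5-fold. The interquartile range was not recomputed without them, so it is not shown to be a trait of this family. From lowest to highest ratio, the FKBP group outside the endoplasmic reticulum was wider, at 1.11 against 0.88. HSPB1, the HSP27 that guards the actin skeleton, was at 153 TPM in the injected wing and 206 TPM in the uninjected wing (−0.43). HSPB8, the partner of BAG3, went the other way in sign, at 85.1 TPM injected and 67.5 TPM uninjected (0.33), and the level of HSPB1 was 1.80 times that of HSPB8 in the injected wing and 3.05 times in the uninjected one.

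Other small heat shock proteins were lower in level. HSPB2, a binding partner of the myotonic dystrophy kinase, was at 43.1 TPM in the injected wing and 50.3 TPM in the uninjected wing (−0.22). HSPB9, which RefSeq also lists as HSP25, was at 24.2 TPM injected and 25.6 TPM uninjected (−0.08). HSPB7, known from heart and skeletal muscle, was at 3.83 TPM injected and 2.77 TPM uninjected and had the highest ratio of all members, 0.45, and HSPB3 was at 3.82 TPM injected and 3.45 TPM uninjected.

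Markers of several tissues that the wing holds also differed between the libraries. Over all genes compared, 2.23% were higher and 4.79% lower by 1.5-fold, and 40.3% had ratios above 0. Of 10 skeletal muscle markers compared, 2 were higher, MYF5 and MYLPF, 8 had ratios above 0, and their summed level was 2902 TPM in the injected wing and 2387 TPM in the uninjected wing. All 7 epidermal markers compared had ratios below 0, with ESRP1 past 1.5-fold and TP63 at −0.01, with sums of 318 TPM injected and 391 TPM uninjected over the list. Of 8 erythrocyte markers, 7 had ratios below 0 and 3 were lower by 1.5-fold, HBZ, SLC4A1 and RHAG. Their sums were 3080 TPM injected and 3444 TPM uninjected. RHAG lay between 1 and 5 TPM at the mean, where 23.2% of all genes passed 1.5-fold.

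All 7 cartilage markers compared had ratios above 0, with sums of 2374 TPM in the injected wing and 1961 TPM in the uninjected wing. MATN3 was past 1.5-fold at a low level, 3.62 TPM injected and 2.11 TPM uninjected. None of the 5 endothelial and 7 macrophage markers passed 1.5-fold, with sums of 300.4 TPM injected and 309.6 TPM uninjected for the endothelial list and 159 TPM injected and 166 TPM uninjected for the macrophage list. The part of these tissues in the ratios of HSPB1, HSPB7, HSPB8 and FKBP1B was not tested.

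HSPB11 and HSPBAP1 carry heat shock protein names for other reasons. HSPB11 (ENSGALG00000038608), known as IFT25, is a subunit of the intraflagellar transport train of cilia, and in mice it is needed for Hedgehog signalling. It was at 5.66 TPM in the injected wing and 9.25 TPM in the uninjected wing, a log2 ratio of −0.70, where 7.04% of all genes of 5 to 20 TPM passed 1.5-fold. HSPB11 was the member that kept its call under each alternative other than a 2-fold rule, with ratios between −0.71 and −0.62. HSPBAP1, which binds HSPB1, was at 12.0 TPM injected and 13.6 TPM uninjected (−0.18).

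**Figure D3:**
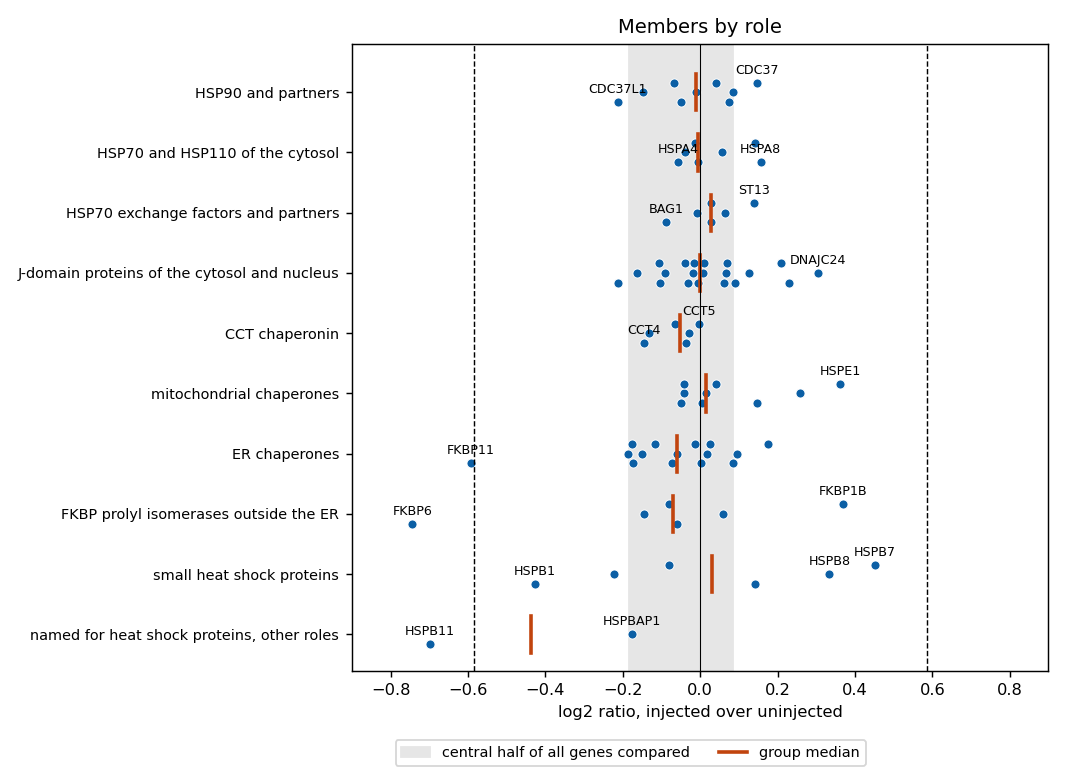
Log2 ratio of injected over uninjected wing for each of the 86 members (blue points), grouped by role from top to bottom, with the group median (red bar), the central 50% of all genes compared (grey band) and 1.5-fold (dashed lines). CCT and HSP70 partners are tightly packed, the small heat shock proteins reach from −0.43 to 0.45, and FKBP11, FKBP6 and HSPB11 are the points beyond the left line.

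**Figure D4:**
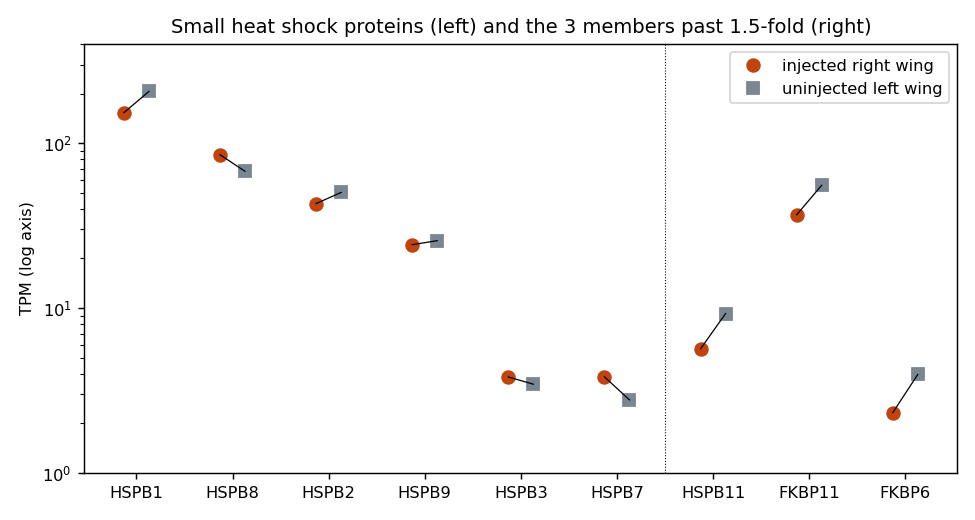
TPM on a log axis of the 6 small heat shock proteins and of the 3 members past 1.5-fold, in the injected right wing (red circles) and the uninjected left wing (grey squares), 1 library each. HSPB1 is at 153 TPM injected and 206 TPM uninjected and HSPB8 at 85.1 TPM injected and 67.5 TPM uninjected, while HSPB11, FKBP11 and FKBP6 all stand lower in the injected wing.

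Summed levels of the larger groups differed little as well. The ER chaperones summed to 2578 TPM in the injected wing and 2615 TPM in the uninjected wing, the HSP90 system to 2499.9 TPM injected and 2437 TPM uninjected, and the CCT subunits to 2107 TPM injected and 2211 TPM uninjected. J-domain proteins of the cytosol and nucleus summed to 1418 TPM injected and 1414 TPM uninjected and mitochondrial chaperones to 1109 TPM injected and 1046 TPM uninjected. The log2 ratio of these sums lay between −0.07 for CCT and 0.11 for the cytosolic HSP70 and HSP110 group. It was −0.18 for the small heat shock proteins, at 313 TPM injected and 356 TPM uninjected. Most of the cytosolic HSP70 and HSP110 sum was HSPA8, at 1492 TPM injected and 1339 TPM uninjected. The median log2 ratio of that group was −0.00. The pair of HSPB11 and HSPBAP1, which is not drawn in the plot of summed levels, had the ratio farthest from 0, −0.37, with sums of 17.7 TPM injected and 22.8 TPM uninjected.

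**Figure D5:**
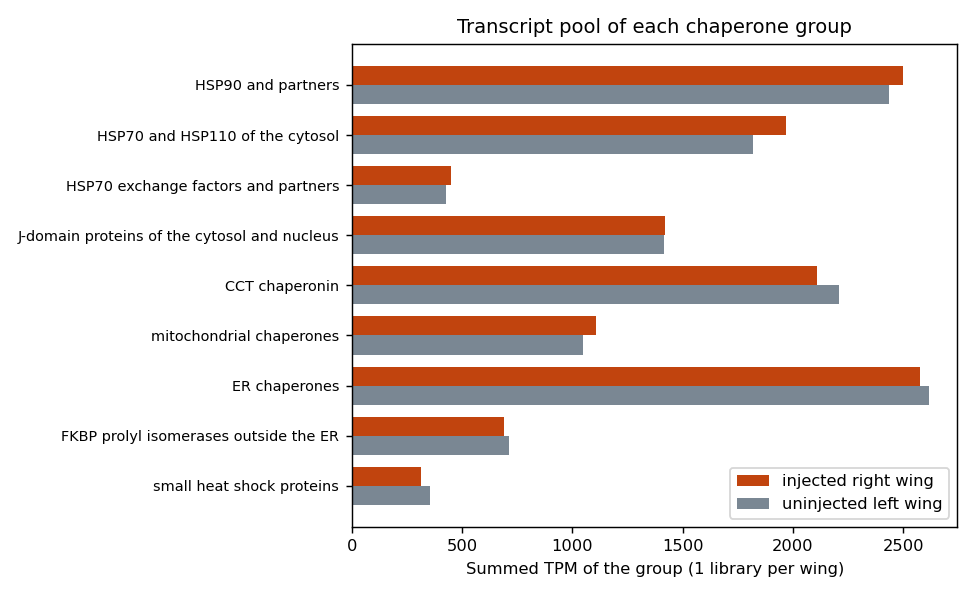
Summed TPM of 9 role groups (horizontal axis from 0) in the injected right wing (red) and the uninjected left wing (grey), 1 library each. ER chaperones and the HSP90 system hold the largest sums, and the small heat shock proteins the smallest, at 313 TPM injected and 356 TPM uninjected.

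Lists of other folding, stress response, protease and immediate early genes, whose names fall outside the rule, also gave few calls. Of all genes, 2.04% between 20 and 100 TPM and 1.87% from 100 TPM upwards passed 1.5-fold. At these levels low counts are thus not particular to these lists. Some listed genes were lower in level, where the shares were larger, at 7.04% from 5 to 20 TPM and 23.2% from 1 to 5 TPM. Those of 1 to 5 TPM were CHAC1 of the unfolded protein response and the immediate early genes FOS, FOSL2, EGR3, ATF3 and NR4A1. Some of these lists were less even than the members and others more even. The median size of the log2 ratio, regardless of sign, was 0.08 over the members. It was smaller over further partners of HSP90 and HSP70, at 0.047, and over ER folding genes, at 0.073. Larger values were 0.092 over mitochondrial folding and protease genes and 0.12 over prefoldin and other partners of CCT. The unfolded protein response had 0.16, heat shock factors 0.18 and immediate early genes 0.30. The lists were not matched for level, and their median levels ran from 20.8 TPM for immediate early genes to 158 TPM for ER folding genes. Of 4 heat shock factor genes and regulators compared, 0 passed 1.5-fold. HSF1, the main switch of the heat shock response in mammals, was at 27.0 TPM in the injected wing and 22.0 TPM in the uninjected wing (log2 ratio 0.29), HSF2 at 83.5 TPM injected and 94.4 TPM uninjected, and HSF3, known from birds, at 28.6 TPM injected and 31.7 TPM uninjected. HSBP1, which binds HSF1, was at 152 TPM injected and 134 TPM uninjected.

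Of 17 further partners of HSP90 and HSP70, 0 passed 1.5-fold (median −0.04). NUDC was at 179.7 TPM in the injected wing and 185 TPM in the uninjected wing, and PTGES3, the p23 that stabilises closed HSP90, at 128 TPM injected and 129 TPM uninjected. Prefoldin and other partners of CCT had 0 of 13 past 1.5-fold (median 0.03), with PFDN5 at 313 TPM injected and 307 TPM uninjected, and PFDN6 with the highest ratio at 40.5 TPM injected and 29.4 TPM uninjected (0.46). The 10 mitochondrial folding and protease genes also had 0, with a median of −0.04, and the protease gene SPG7 led them at 146 TPM injected and 148.5 TPM uninjected.

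In the ER, SDF2 was the single call among 22 folding genes (median −0.03), at 24.6 TPM in the injected wing and 44.4 TPM in the uninjected wing (log2 ratio −0.85). SDF2 is found in complexes with J-domain proteins of the ER in mammals, and its relative SDF2L1 was at 51.8 TPM injected and 45.1 TPM uninjected (0.20). CALR, the lectin chaperone calreticulin, was at 1550.4 TPM injected and 1503 TPM uninjected, and PPIB, a collagen prolyl isomerase, at 1398 TPM injected and 1506 TPM uninjected.

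The unfolded protein response had 0 of 13 genes past 1.5-fold (median −0.07), with its transcription factor ATF4 at 577 TPM in the injected wing and 629 TPM in the uninjected wing. CREB3L1, which serves secretion in bone-forming cells, was at 117 TPM injected and 108 TPM uninjected, and XBP1 at 108 TPM injected and 112 TPM uninjected. Immediate early genes, which respond within minutes to handling, had 0 of 12 (median −0.13). The most abundant of these was JUN, at 147 TPM in the injected wing and 183 TPM in the uninjected wing, followed by KLF2 at 126 TPM injected and 112 TPM uninjected. The extremes came near the limit on both sides. EGR1 was at 48.1 TPM injected and 33.0 TPM uninjected (0.54), and DUSP1 at 14.9 TPM injected and 21.9 TPM uninjected (−0.55).

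Proteasome subunits and assembly factors, the arm of protein care that destroys rather than folds, are set beside the chaperones for scale. Of 39 such genes, 7 (17.9%) had ratios above 0 and the median was −0.08. The catalytic subunit gene PSMB6, named here after its value was seen, was the single call, lower at −0.71. Ratios above 0 were found in 38 of the 86 chaperone members (44.2%), beside 40.3% over all genes compared, with TPM as deposited. Under the other scalings tried, 49 to 54 of the 86 members were above 0. The share over all genes was not recounted there, so the closeness of these shares holds for the deposited TPM alone. The upper quartile of the proteasome ratios was −0.02, and their signs were not recounted under other scalings. No test of these differences was possible with 1 library a wing.

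Rows near the edge of the rule were few. The lowest members were DNAJB13, FKBP6, HSPB7 and HSPB3, with means between 1.75 and 3.64 TPM. Just outside were DNAJC22, at 0.665 TPM in the injected wing and listed at 0 in the uninjected wing, and DNAJC5B, listed at 0 in both.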

How the data were processed

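Whole-wing RNA of 1 chick embryo was sequenced as 1 library per wing. Values are TPM as deposited by the authors, in a table of Ensembl gene identifiers with symbols. The tools were HISAT2 2.2.1 and StringTie 2.1.7 with the build GRCg6a, per the submitters' processing notes, and their settings, annotation release and strand handling are not stated there. A second table was not used, because its 2 value columns match neither sample's title. Depth is therefore unknown, and no counting interval was made.

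The log2 ratio of injected over uninjected used TPM with 0.1 added to each value, so changes of low genes are understated. Genes were compared with a mean of at least 1 TPM and values above 0 in both wings, leaving out 1311 short RNA rows. A gene was called past 1.5-fold. The calculation of the ratio and call was checked on simulated data. Members were named by rule: each call, and in each role group the 2 most abundant and, from 5 TPM, the highest and lowest ratio. Other members were named for their role or their ratio. Genes of the other lists were named for a call, level, ratio or role. Members and lists were chosen with earlier results of these data known. All 86 members matched RefSeq names (GRCg7b), 3 by an older symbol; 9 further RefSeq genes of these families were not analysed here. One list of tissue markers is not reported here. Alternatives were 2 pseudocounts, 3 scalings, 2 filters, a 2-fold rule and removal of the abundance trend (lowess). Python 3.11.15, pandas 2.3.3, NumPy 2.4.6, statsmodels 0.14.6 and matplotlib 3.10.9 were used.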

Additional observations from a re-analysis of the deposited data

How the results depend on the processing

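The count of lower members was 3, and became 1 (HSPB11) with a pseudocount of 1 TPM and 0 with a 2-fold rule; 0 members were higher under any alternative tried. Over all genes, 311 higher and 668 lower became 186 and 432 with a pseudocount of 1 TPM, 122 and 292 with a minimum mean of 5 TPM, 831 and 1298 with no filter on the mean, and 70 and 207 with a 2-fold rule. Higher genes were 31.8% of all calls, and 45.1% once the abundance trend was removed. The median of the small heat shock proteins was 0.03, and −0.15 when the 2 members under 5 TPM, HSPB3 and HSPB7, were left out. Each of the 3 other scalings raised the log2 ratios, by 0.033 to 0.047. Members with ratios above 0 then numbered 49 to 54 in place of 38 of 86, so the sign of a ratio this close to 0 carries little. The other group medians, the member median and the log2 ratio of summed levels moved by less than 0.1 under the alternatives. No paired analysis was possible because each wing has 1 library. TPM keeps no depth, so counting error could not be set apart from a difference between wings.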

Other observations

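These lists were drawn up after the values of the members had been seen. HSPB11 belongs to the intraflagellar transport train, and 20 other genes of that machinery were compared. None passed 1.5-fold, with a median log2 ratio of −0.04 and a range from −0.22 for WDR35 to 0.30 for CLUAP1. Their median level was 30.3 TPM, and 2.04% of all genes between 20 and 100 TPM passed 1.5-fold. IFT27, the direct partner of HSPB11 in the train, was at 15.7 TPM in the injected wing and 16.5 TPM in the uninjected wing (−0.06), and IFT20, the most abundant, at 108 TPM injected and 117 TPM uninjected. With calls this rare at such levels, the lack of another call says little about this machinery, in a comparison with no replicate.

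Genes that fold and modify collagen gave no call. Of 15 compared, 0 passed 1.5-fold, with a median of −0.01. Their median level was 123 TPM. Of all genes, 1.87% from 100 TPM upwards and 2.04% between 20 and 100 TPM passed 1.5-fold. With calls this rare, the lack of a call says little about these genes. SERPINH1, the collagen chaperone HSP47, was at 837 TPM in the injected wing and 838 TPM in the uninjected wing. The prolyl hydroxylase gene P4HA3 was at 185 TPM injected and 215 TPM uninjected (−0.22), the lowest ratio, and the prolyl 3-hydroxylase gene P3H2, at 21.9 TPM injected and 19.3 TPM uninjected, had the highest (0.18).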
